A study of Mus musculus with 2 samples.

Results

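The BMP signalling and Id genes described here are 10 genes chosen by symbol: the Id targets Id1, Id2 and Id3, the ligand Bmp2, the receptors Bmpr1a and Bmpr2, the signalling Smads Smad1 and Smad5, and the inhibitory Smads Smad6 and Smad7. All 10 were present among the 17044 genes of the deposited table, which gives each gene's mean level in 12 cell clusters. The data are single-cell RNA profiles of colon epithelium, taken from C57BL/6 mice of wild-type genotype 2 weeks after irradiation, in 1 group of 2 libraries. There is no unirradiated group, so nothing here measures an effect of irradiation. The series concerns transplanted colon organoids as a treatment of radiation proctitis, and the labels do not say which cells, if any, came from a graft, nor how many animals were used.

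Bone morphogenetic proteins (BMPs) are secreted ligands that bring together type I and type II receptors on the cell surface. The activated receptors phosphorylate Smad1 and Smad5, which enter the nucleus with Smad4 and switch on genes such as the Id genes, while Smad6 and Smad7 are induced by the pathway and feed back to inhibit it. In the colon, BMP activity is known to be higher near the luminal surface than at the crypt base, where antagonists from the underlying mesenchyme protect stem cells. Id proteins bind the E proteins, partners of cell-fate factors of the basic helix-loop-helix class, and keep them off DNA.

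The table holds averages over the cells of both libraries, so there are no replicates behind any value and no test was made. Levels are mean UMIs (unique molecular identifiers, 1 per captured RNA molecule) per 10000 UMIs of a cell. Ranges in parentheses are 95% Poisson intervals that cover counting error only, and they were set wide where cell depths could not be read. The averages gave 3082 cells, from 482 in cluster 0 to 19 in cluster 11. The identified cells had a median of 11630.5 UMIs, and clusters 5 and 6 were shallow, with medians of 1377 and 2355. By markers, cluster 0 was goblet-like (8 of 8 goblet markers highest there), cluster 11 enteroendocrine-like (8 of 8), cluster 7 proliferating-like (8 of 8) and cluster 5 neutrophil-like (7 of 8). Clusters 8 and 9 were absorptive colonocyte-like, with summed marker levels of 260.2 and 251.5, against 69.1 or less in the others. Of these 8 markers, 4 were highest in cluster 8, 2 in cluster 9 and 2 in cluster 4, where the sum was 56.3. Cluster 10 held the highest levels of 8 macrophage and dendritic, 6 T and NK and 3 mast cell markers and was left unnamed. Cluster 6 led on tuft, plasma and stem cell markers at once and was unnamed too. Clusters 1 to 4 are given by number, with leading genes Clu and Aldh1a3 in cluster 1, Edn2 and Ccl20 in cluster 2, Gsdmc3 and Hao2 in cluster 3, and Clca4b and Duoxa2 in cluster 4. In cluster 3 the neutrophil granule genes Ngp and Camp had the largest folds. Against the label of epithelium, clusters 5 and 10 had Epcam, an epithelial adhesion molecule, at 3.83 and 2.89, while the other 10 clusters ranged from 14.9 to 37.6. Those 10 are called the epithelial clusters here.

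Across all gene and cluster pairs of the 10 genes, 6 pairs stood 2-fold or more above the mean of the other clusters and 23 stood 2-fold or more below it, on the scale log2(level + 0.1). The same held for 3.34% and 7.5% of the pairs of all genes. Among the 9912 genes whose mean level lay in the range of the 10, the shares were 4.58% and 11.9%. Of the 6 higher pairs, 4 belonged to the enteroendocrine-like cluster 11 (Id2, Id3, Bmpr1a and Smad1). The other pairs were Bmp2 in cluster 8 and Id2 in cluster 10. Of the 23 lower pairs, 9 were Id2, whose mean is set by clusters 10 and 11.

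**Figure D1:**
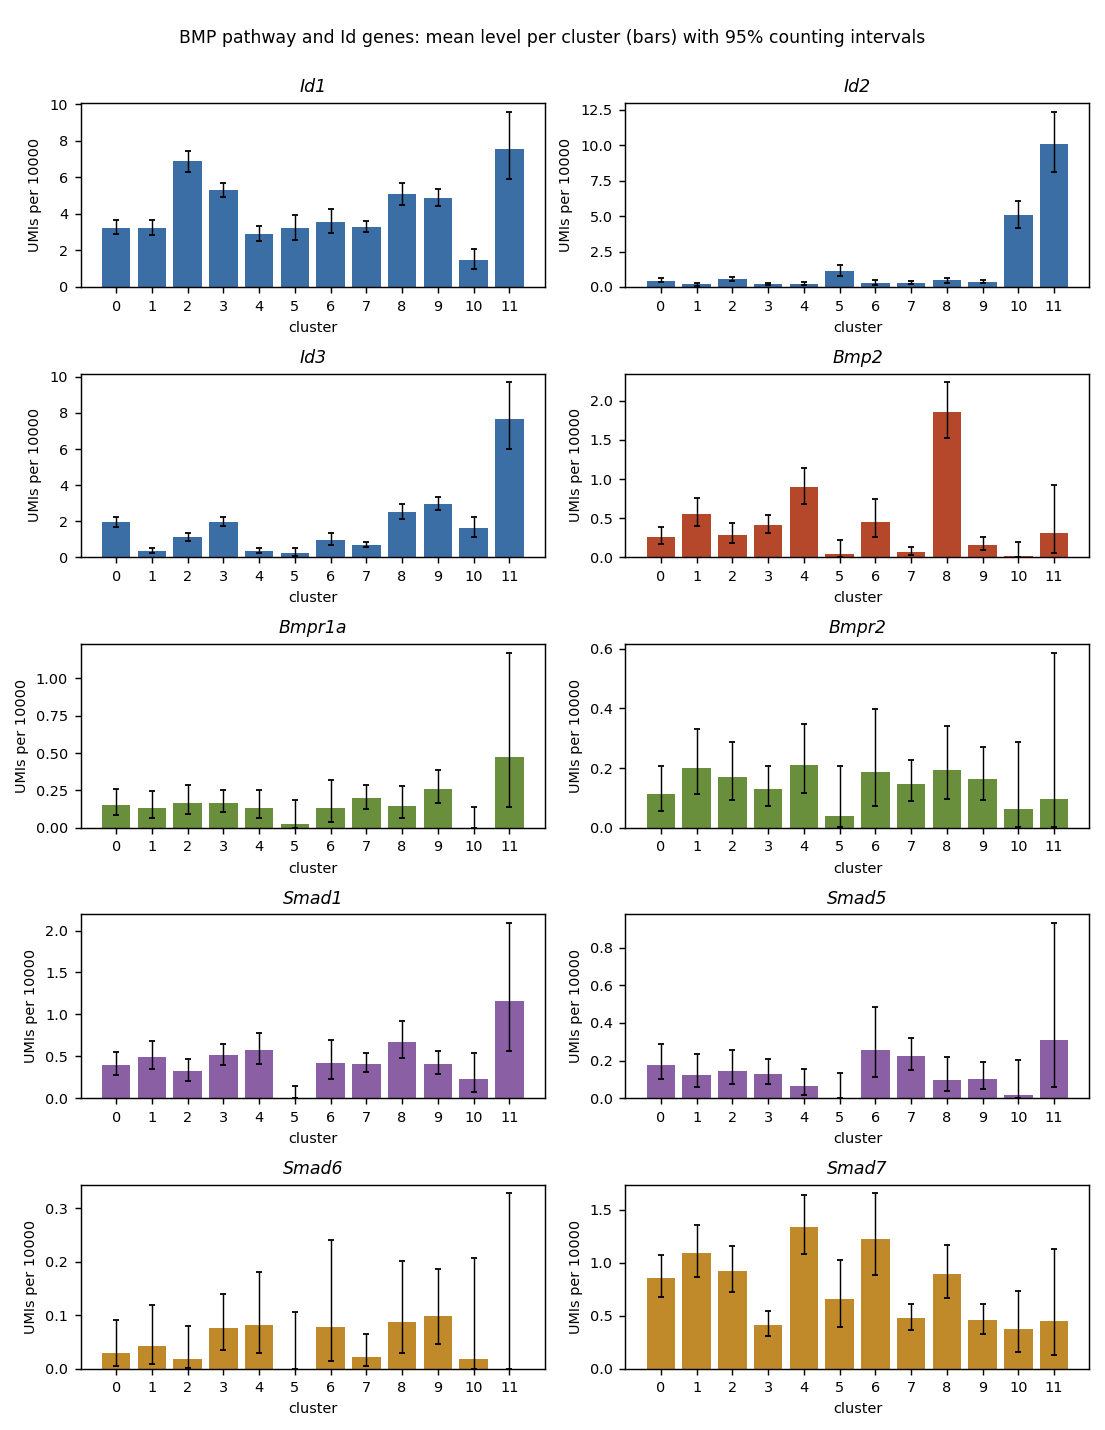
Mean level of each of the 10 genes in UMIs per 10000 (vertical axis, linear, a scale of its own for each gene) in clusters 0 to 11 (horizontal axis). Bars are the averages and lines the 95% counting intervals, or, above a level of 0, the level that 3 UMIs would give. Id1, Id2 and Id3 are highest in cluster 11, Bmp2 stands highest in cluster 8 at 1.85, and no neighbours in the order of the receptors' levels have separate intervals.

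The Id genes had separate patterns. Id1 (ENSMUSG00000042745.9, chr2:152736251-152737410, plus strand, GRCm38) was detected in every cluster. Its levels in clusters 0 to 9 were 3.25, 3.23, 6.86, 5.29, 2.90, 3.20, 3.56, 3.28, 5.06 and 4.88. It stood at 1.47 (1.003 to 2.08) in cluster 10 and at 7.57 (5.89 to 9.58) in cluster 11. Clusters 11 and 2 were highest and overlapped in their intervals. Clusters 3, 8 and 9 followed, also overlapping one another, then a group of 6 clusters between 2.90 and 3.56, and cluster 10 was lowest. Within the 9 epithelial clusters other than cluster 11, the highest Id1 level was 2.36-fold the lowest.

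Id2 (ENSMUSG00000020644.9, chr12:25093799-25097140, minus strand) was concentrated in a few clusters. Its level was 10.1 (8.12 to 12.3) in enteroendocrine-like cluster 11, 5.05 (4.14 to 6.09) in cluster 10 and 1.11 (0.756 to 1.57) in neutrophil-like cluster 5. The remaining clusters ranged from 0.175 in cluster 1 to 0.542 in cluster 2, and no neighbours in that part of the order had separate intervals. Cluster 11 was 22.4-fold (15.3 to 33.2) above goblet-like cluster 0, the other secretory cluster, where Id2 was at 0.450.

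Id3 (ENSMUSG00000007872.3, chr4:136143497-136145755, plus strand) was 7.68 (5.99 to 9.70) in cluster 11. Next came the absorptive colonocyte-like clusters, with 2.96 (2.62 to 3.34) in cluster 9 and 2.54 (2.15 to 2.98) in cluster 8. Clusters 3, 0, 10, 2, 6 and 7 were at 1.96, 1.93, 1.60, 1.11, 0.954 and 0.703. The lowest were cluster 4 with 0.354 (0.229 to 0.524), cluster 1 with 0.346 (0.226 to 0.507) and cluster 5 with 0.246. Cluster 11 was separate from cluster 9, and cluster 7 from cluster 4. Id3 varied more than Id1 within the 9 epithelial clusters, 8.56-fold against 2.36-fold. Cluster 2, high for Id1, was in the middle of the Id3 order. Across the 10 epithelial clusters the log2 levels of Id1 and Id3 had a Pearson r of 0.75 and a Spearman rho of 0.76, and without cluster 11 they had 0.60 and 0.67. These are descriptions over clusters that share libraries and clustering.

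Id2 and Id3 were both highest in cluster 11, and their start regions are shown for the letters they hold. They cover 250 bases before to 50 after the RefSeq start (GRCm38.p6), and RefSeq's table held such regions for 7 of the 10 genes. Both strands were searched for GGCGCC, a palindrome, and for CAGAC, whose other strand reads GTCTG, both known as letters that Smads bind. Capitals mark the matches. The Id2 region is chr12:25096043-25096342 on the minus strand and the Id3 region chr4:136143572-136143871 on the plus strand.
Id2: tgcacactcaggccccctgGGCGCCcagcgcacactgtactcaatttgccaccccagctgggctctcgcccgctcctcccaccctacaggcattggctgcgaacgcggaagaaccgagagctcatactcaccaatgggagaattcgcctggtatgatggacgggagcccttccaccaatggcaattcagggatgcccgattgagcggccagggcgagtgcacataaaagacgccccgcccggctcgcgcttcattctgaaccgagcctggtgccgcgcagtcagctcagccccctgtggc
Id3: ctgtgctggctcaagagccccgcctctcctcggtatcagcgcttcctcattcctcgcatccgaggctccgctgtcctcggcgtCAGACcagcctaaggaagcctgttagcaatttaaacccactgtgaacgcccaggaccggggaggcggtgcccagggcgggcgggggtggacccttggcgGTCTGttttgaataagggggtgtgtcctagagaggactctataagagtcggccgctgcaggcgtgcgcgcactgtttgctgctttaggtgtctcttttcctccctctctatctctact
The Id2 region holds GGCGCC 1 time and CAGAC 0 times. The Id3 region holds CAGAC 2 times, 1 of them on the other strand, and GGCGCC 0 times. Of 32851 start regions of this length, 11.9% hold GGCGCC and 49.6% hold CAGAC on either strand. A match is a description of the letters and shows no binding.

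Bmp2 (ENSMUSG00000027358.6, chr2:133552159-133562885, plus strand), the ligand, was highest in absorptive colonocyte-like cluster 8, at 1.85 (1.52 to 2.23). Cluster 4 had 0.894 (0.686 to 1.15), and clusters 1, 6 and 3 had 0.556, 0.457 and 0.415. Clusters 11, 2, 0 and 9 were at 0.309, 0.290, 0.259 and 0.160, and cluster 7 at 0.0681 (0.0313 to 0.129). Cluster 5 was at 0.0490, and the 0.0127 of cluster 10 came from 1 UMI of 1 cell. Cluster 8 was separate from every other cluster, and below it no neighbours were separate. Bmp2 had the widest range of the 10 genes within the 9 epithelial clusters, 27.2-fold. The absorptive colonocyte-like clusters differed from each other in this gene, cluster 8 being 11.6-fold (6.73 to 21.6) above cluster 9.

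Other ligands and the antagonists came from the lists of pathway genes. Of 13 other BMP ligands, 4 were measured, and 3 of these were below 0.1 in every cluster. Bmp3, which in contrast to Bmp2 acts against BMP signalling in bone, was 0.463 (0.306 to 0.671) in cluster 8. Its levels in clusters 2, 1 and 9 were 0.313, 0.268 and 0.221, and those in clusters 7 and 0 were lower, 0.0566 and 0.0172. Bmp8b and Bmp8a reached only 0.0837 in cluster 9 and 0.0604 in cluster 5. Of 14 antagonists, 5 were measured, and values of the mesenchymal antagonists Grem1 and Nog were not analysed here. Nbl1, a secreted antagonist of the DAN family, was 1.03 (0.789 to 1.32) in cluster 8 and 0.606 in cluster 4. Its levels in clusters 3, 9 and 7 were 0.236, 0.0681 and 0.0197. The clusters with most Bmp2, clusters 8 and 4, therefore also had most Nbl1. The log2 levels of Nbl1 and Bmp2 had a Pearson r of 0.90 over the 10 epithelial clusters (rho 0.85), again a description. Bambi, a receptor-like decoy, was 1.30 (0.672 to 2.28) in cluster 11. Its levels in absorptive colonocyte-like clusters 8 and 9 were 0.0375 and 0.0372, and in clusters 7 and 0 they were 0.259 and 0.276. Twsg1, which binds BMPs together with chordin, stayed at 0.170 or less.

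**Figure D2:**
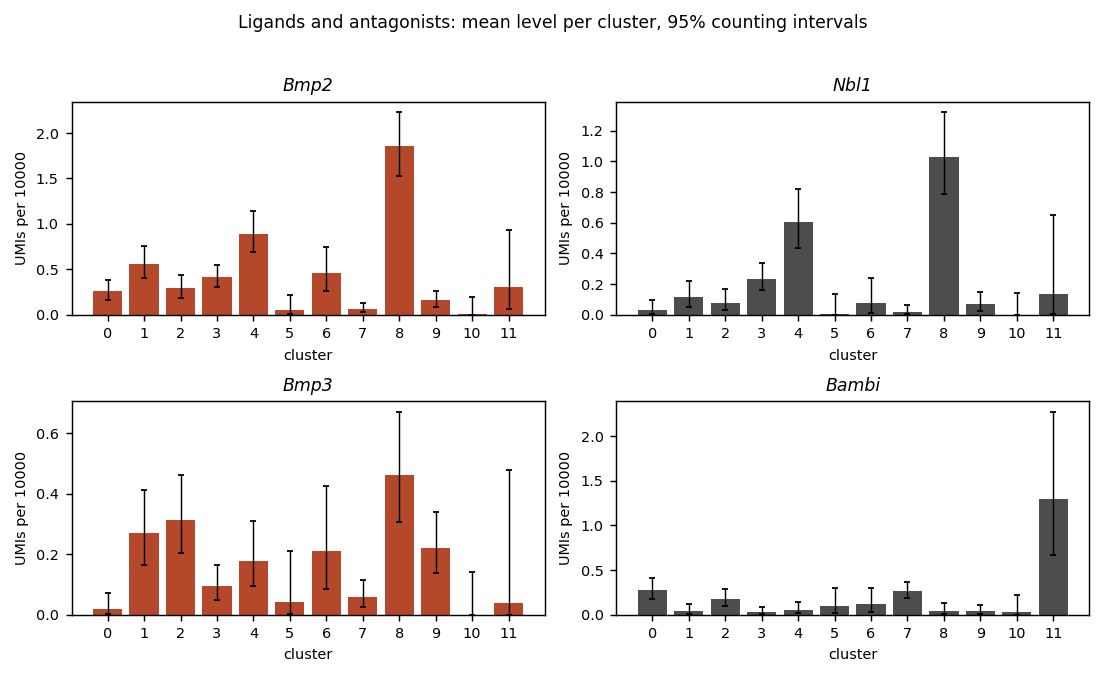
Mean level in UMIs per 10000 (vertical axis, linear, separate scales) of the ligand genes Bmp2 and Bmp3 (red) and of the antagonists Nbl1 and Bambi (grey) in clusters 0 to 11 (horizontal axis), with 95% counting intervals, or, above 0, the level of 3 UMIs. Bmp2 and Nbl1 both peak in clusters 8 and 4, and Bambi peaks in cluster 11 at 1.30.

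The receptors were low, and their intervals overlapped between neighbouring clusters. Bmpr1a (ENSMUSG00000021796.15, chr14:34410734-34503341, minus strand), a type I receptor, ranged from 0.133 in cluster 1 to 0.259 (0.166 to 0.385) in cluster 9 within the 9 epithelial clusters. It was 0.474 (0.138 to 1.17) in cluster 11, 0.0268 in cluster 5 and 0 in cluster 10, where 3 UMIs would have given 0.139. Bmpr2 (ENSMUSG00000067336.6, chr1:59763400-59879014, plus strand), the type II receptor, ranged from 0.114 in cluster 0 to 0.210 (0.116 to 0.348) in cluster 4. It was 0.0964 in cluster 11, 0.0634 in cluster 10 and 0.0407 in cluster 5. No neighbours in either order were separate, and the intervals of the highest and lowest epithelial clusters overlapped as well. Differences between epithelial clusters in these receptors were therefore not detectable at this depth. Of 10 other receptors and co-receptors, 8 were measured. Rgmb, a BMP co-receptor, was highest in cluster 6, at 0.377, and Neo1, a receptor of the RGM proteins, in cluster 8, at 0.376. Acvrl1, a type I receptor known from endothelium, had levels of 0.280 and 0.232 in clusters 10 and 11 and of 0.0535 or less in the others. The 4 measured endothelial markers summed to 0.293 and 0.392 there and to 0.105 or less elsewhere, and Plvap was at 0 in both. Their part in the Acvrl1 levels was not tested. The Acvrl1 level of cluster 11 lay below the 0.328 that 3 UMIs would give there. Its ratio to the cluster 0 level was 7.42 (0.663 to 66.6).

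Among the signalling Smads, Smad1 (ENSMUSG00000031681.16, chr8:79338395-79399518, minus strand) was 1.15 (0.567 to 2.09) in cluster 11 and 0.676 (0.483 to 0.920) in cluster 8. Clusters 4, 3, 1, 6, 7, 9, 0 and 2 followed with 0.570, 0.510, 0.495, 0.415, 0.411, 0.410, 0.394 and 0.318. It was 0.234 in cluster 10 and 0.00760 in cluster 5. Smad5 (ENSMUSG00000021540.16, chr13:56703010-56742377, plus strand) ranged from 0.0643 (0.0192 to 0.157) in cluster 4 to 0.254 (0.115 to 0.486) in cluster 6 within the 9 epithelial clusters. It was 0.309 in cluster 11, and its values in clusters 5 and 10 came from 1 UMI of 1 cell each. The order differed between the pair: cluster 8 was high for Smad1 and low for Smad5, at 0.0989, and cluster 7 was at 0.225 for Smad5. No neighbours were separate in either order, but clusters further apart could differ: Smad5 in cluster 4 was 0.286-fold (0.0799 to 0.775) that in cluster 7.

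Smad6 (ENSMUSG00000036867.7, chr9:63953076-64022059, minus strand), an inhibitor that acts mainly on BMP signalling, was found at 0.0990 (0.0457 to 0.187) or less in every cluster, the highest being cluster 9. It was listed at 0 in clusters 5 and 11, where 3 UMIs would have given 0.107 and 0.328, so the enteroendocrine-like cluster could not have shown the level of the others. Smad7 (ENSMUSG00000025880.11, chromosome 18), an inhibitor of both the BMP and the TGF-beta branch, was 1.34 (1.08 to 1.64) in cluster 4, and 1.22 and 1.09 in clusters 6 and 1. Clusters 2, 8, 0 and 5 were at 0.920, 0.892, 0.859 and 0.654. The lowest were clusters 7, 9, 11, 3 and 10, at 0.476, 0.454, 0.446, 0.416 and 0.372. Neighbours overlapped, but the ends of the order did not: cluster 4 was 2.95-fold (2.03 to 4.35) above cluster 9.

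Smad7 and Id3 tended to opposite orders. Cluster 4 had 0.120 times (0.0758 to 0.181) the Id3 level of cluster 9, where Smad7 was the lower. Clusters 4 and 1, with the least Id3 among the epithelial clusters, were among the 3 highest for Smad7. The log2 levels had a Pearson r of -0.64 over the 10 epithelial clusters and -0.55 without cluster 11. Xist, the RNA made from an inactive X chromosome, ran opposite to Id3 and with Smad7. It was 2.99, 2.68, 2.10 and 1.34 in clusters 4, 6, 7 and 1, and 0.864 and 0.236 in clusters 2 and 0. Clusters 9 and 3 had 0.0223 and 0.0197, and cluster 8 was at 0, with at most 0.0505 allowed by 3 UMIs. Over the 9 epithelial clusters other than cluster 11, Xist and Id3 had a Pearson r of -0.88 and a Spearman rho of -0.83. With cluster 11, whose Xist level of 0.994 came from 12 UMIs of 1 cell, these were -0.58 and -0.70. Xist and Smad7 had 0.57 and 0.70 over the 9 clusters and 0.47 and 0.61 over the 10. The Y-linked gene Ddx3y was found in every cluster, from 0.161 in cluster 7 to 0.969 in cluster 11, and which animals gave the cells of each cluster is not in the labels. The part of Xist-bearing cells in the Id3 and Smad7 patterns was not tested. For the log2 median UMIs of a cluster's cells, the Pearson r with Id3 was -0.06 over the 10 epithelial clusters (rho -0.25), and with Smad7 it was -0.44 (rho -0.27).

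**Figure D3:**
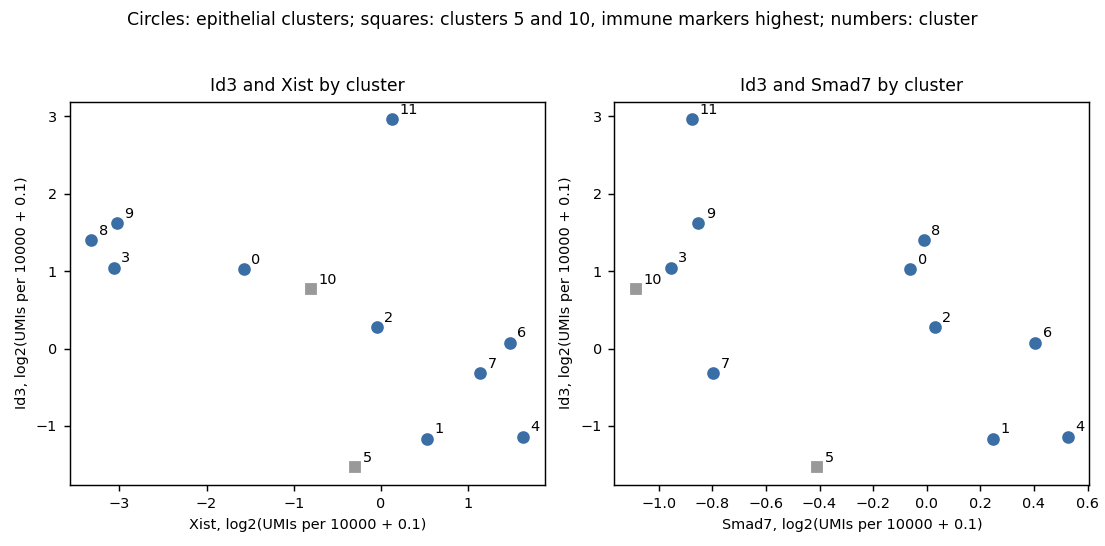
Id3 (vertical axes) against Xist (left) and Smad7 (right), each as log2(UMIs per 10000 + 0.1), with 1 point per cluster and its number beside it. Circles are the 10 epithelial clusters and squares clusters 5 and 10. Clusters 8, 9 and 3 have the least Xist and, apart from cluster 11, the most Id3, while clusters 4 and 1 have little Id3 and much Smad7.

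Setting the absorptive colonocyte-like clusters 8 and 9 against proliferating-like cluster 7 asked how the genes differ between absorptive-like and dividing cells. Position along the crypt was not measured, and cluster 4 was not part of this comparison. The sides also differed in Xist, which was 0 and 0.0223 in clusters 8 and 9, against 2.10 in cluster 7. Cell type and the share of Xist-bearing cells therefore cannot be told apart in these ratios, and the part of Xist-bearing cells was not tested. Of the 10 genes, 2 were at least 2-fold higher in the mean of clusters 8 and 9 (Id3 and Bmp2) and 0 at least 2-fold lower on the scale log2(level + 0.1), which shrinks the folds of low genes. As plain ratios of levels, Smad6 at 4.26 and Smad5 at 0.445 were also past 2-fold. Among all genes 5.06% were higher and 7.69% lower, and among genes in the level range of the 10 these were 8.04% and 11%. The members' median log2 difference was 0.42, that of all genes -0.03, and no median was taken over genes in the level range. As plain ratios, Id3 was 3.61-fold (2.77 to 4.72) higher in cluster 8 than in cluster 7 and 4.22-fold (3.32 to 5.39) higher in cluster 9. Id1 was 1.54-fold (1.33 to 1.79) and 1.49-fold (1.30 to 1.70) higher. For Bmp2 the clusters parted: cluster 8 was 27.2-fold (13.9 to 60.9) above cluster 7, but cluster 9 only 2.34-fold, with an interval of 0.960 to 6.06. Smad7 parted as well, at 1.87-fold (1.28 to 2.74) in cluster 8 and 0.954-fold (0.631 to 1.43) in cluster 9. Smad5 lay below cluster 7 in both, at 0.440-fold (0.148 to 1.08) and 0.450-fold (0.192 to 0.961). Smad6 lay above it in both, at 4.003-fold (0.789 to 26.2) and 4.52-fold (1.12 to 26.6). Smad1 was 1.64-fold (1.07 to 2.51) in cluster 8 and 0.996-fold (0.641 to 1.53) in cluster 9. Id1 in clusters 8 and 9 was not above every non-absorptive cluster. Cluster 2 was 2.09-fold (1.84 to 2.38) above cluster 7, and set against cluster 2 the log2 difference of clusters 8 and 9 in Id1 was -0.46, in place of 0.58. Cluster 2 is not a proliferating cluster by its markers, which summed to 2.31, against 18.3 in cluster 7.

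**Figure D4:**
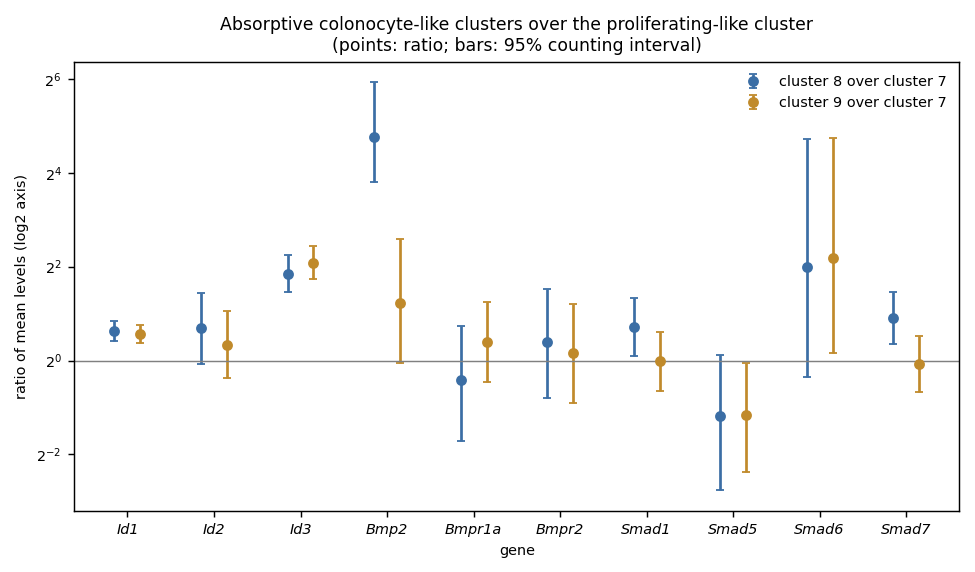
Ratio of the mean level in absorptive colonocyte-like cluster 8 (blue) and cluster 9 (ochre) to that in proliferating-like cluster 7 (vertical axis, log2 scale) for the 10 genes (horizontal axis), with 95% counting intervals. Id3 is higher in both clusters, at 3.61 and 4.22, and Bmp2 is 27.2 in cluster 8 and 2.34 in cluster 9.

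The same comparison was read in the other pathway genes. Of 74 listed, 46 were measured, and 12 of these were below 0.1 in every cluster. In clusters 8 and 9, 2 of the 46 were at least 2-fold higher than in cluster 7 (Bmp3 and Nbl1) and 5 lower (Bambi, Tcf3, Atoh1, Ascl2 and Tgfb1), with a median log2 difference of 0.01. These counts lie near the background of 5.06% and 7.69% of all genes (8.04% and 11% in the level range). The list of E proteins and fate factors of the basic helix-loop-helix class, with 6 measured of 7, held 3 of the lower genes, 1 of them an E protein. The E protein Tcf3 had levels of 0.124 and 0.149 in clusters 8 and 9, against 0.443 in cluster 7. The E proteins Tcf4 and Tcf12 did not pass 2-fold and went in different directions. Tcf4 was at 0.509 and 0.208, against 0.649, and Tcf12 at 0.233 and 0.305, against 0.187. Ascl2, a stem cell factor, was 0 and 0.0152 in clusters 8 and 9, against 0.206 in cluster 7. Atoh1, the secretory fate factor, was 2.37 in goblet-like cluster 0, and Neurod1, an endocrine fate factor, 2.24 in cluster 11, where the Id genes were highest. Tcf4 peaked in cluster 6, at 1.07. Of the 10 measured intracellular regulators 0 passed 2-fold in either direction. Smad4, the shared partner, was 0.239 and 0.245 in clusters 8 and 9, against 0.373 in cluster 7. Tob1, a repressor of BMP signalling in bone cells, was highest in cluster 11, at 3.04, and Skil, a Smad corepressor, in cluster 5, at 1.81. Further BMP targets were near the floor: Hey1 reached 0.186 in cluster 10, Atoh8 0.0722 in cluster 0 and Msx1 0.0534 in cluster 5. In the TGF-beta and activin branch, 1 of 9 measured genes was lower and 0 higher. Tgfb1, its ligand, had levels of 5.59 and 1.61 in clusters 10 and 5 and of 0.359 or less elsewhere. Tgif1, a corepressor, peaked in cluster 5, at 3.86, and Smad2, a signalling Smad of that branch, in cluster 4, at 0.638.

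In enteroendocrine-like cluster 11, 4 of the 10 genes were at least 2-fold higher and 0 lower, where 11.1% of all genes were higher and 9.08% lower (13.7% and 14.4% of genes in the level range). The members' median log2 difference from the other clusters was 0.91, against -0.04 for all genes, and no median was taken over genes in the level range. The members' median lies between the values of Id1 and Smad5, and Smad5 rests on about 3 UMIs. Of the 4, Bmpr1a rests on about 4 UMIs, an approximation on the low depth used for the intervals. Its interval of 0.138 to 1.17 overlaps that of the next cluster, as does that of Smad1. Besides Id2, Id3 stood 3.97-fold (2.97 to 5.27), Smad1 2.93-fold (1.32 to 5.95) and Id1 2.33-fold (1.77 to 3.04) above goblet-like cluster 0. The cluster has 19 cells, and how its levels are spread over them is hidden by the average.

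In neutrophil-like cluster 5, 5 of the 10 genes were at least 2-fold lower and 0 higher, with 19.4% of all genes lower and 5.13% higher (30.9% and 7.1% in the level range). The 8 epithelial markers stood there at 12.4% (Cdh1) to 37.0% (Cdx2) of their mean in the 10 epithelial clusters, with Epcam at 15.3%. Id2, Smad7 and Id1 lay above these marker values, at 85.5% (58.2% to 121.2%), 80.6% (48.0% to 126.7%) and 69.7% (56.1% to 85.7%). Their intervals overlap that of Cdx2, which reached 71.9%, and lie above those of the other 7 markers. The Id2 percentages of clusters 5 and 10 are lowered by cluster 11, whose 10.1 raises the epithelial mean to 1.30. The other epithelial clusters were at 0.542 or less, below the 1.11 of cluster 5. Id3 was at 11.97% (4.78% to 24.8%), just below the lowest marker value of 12.4%, and its interval overlapped the marker range. Smad1 was at 1.42%, with an upper limit of 27.4%. Bmp2 was at 9.31%, with an upper limit of 42.0%. For Bmpr1a, Bmpr2 and Smad5, at 13.6%, 25.3% and 1.09%, the upper limits were 93.1%, 128.6% and 82.8%, and Smad6, at 0, could have been at up to 200.1%. The depth of cluster 5 therefore could not place these last 4 genes relative to the markers. The part of RNA from epithelial cells in the cluster 5 levels was not tested. In cluster 10, 4 genes were lower and 1 higher, against 13.2% and 5.77% of all genes (21.4% and 7.15% in the level range). The same epithelial markers were at 3.06% to 15.4% there, while Id2 was at 388%, Id3 at 78.0%, Smad7 at 45.8% and Smad1 at 43.7%. Bmp2 was at 2.42%. No intervals were computed for these percentages. Smad7 and Smad1 rested on about 8 and 5 UMIs in cluster 10. Their levels there were 0.372 (0.160 to 0.732) and 0.234 (0.0763 to 0.544), against epithelial means of 0.812 and 0.535.

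**Figure D5:**
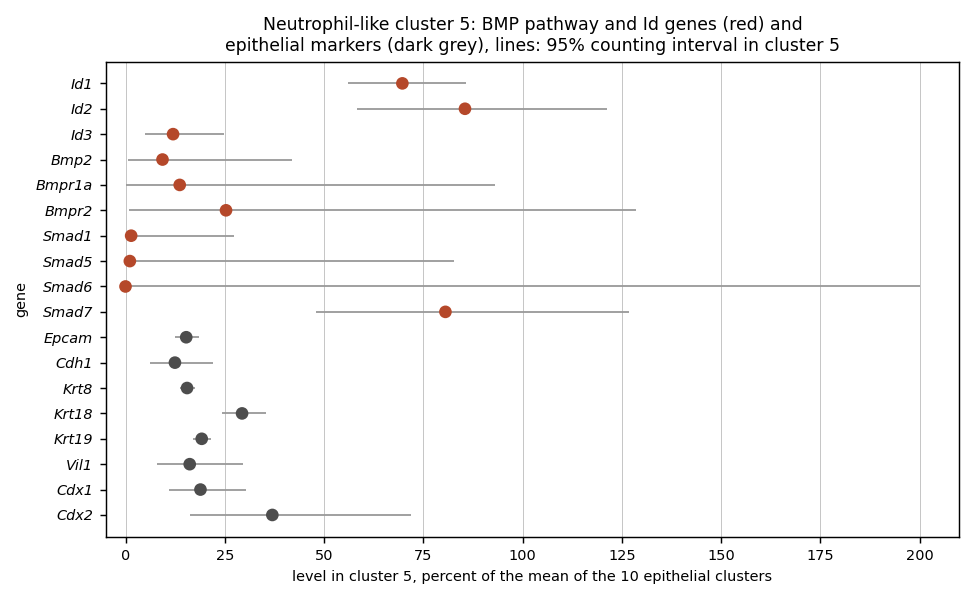
Level in neutrophil-like cluster 5 as a percent of the mean of the 10 epithelial clusters (horizontal axis, linear) for the 10 BMP pathway and Id genes (red, upper rows) and for the 8 epithelial markers (dark grey, lower rows). Lines are 95% counting intervals of the cluster 5 level (for Smad6, at 0, up to the level of 3 UMIs). Id1, Id2 and Smad7 lie at 69.7% to 85.5% and the markers at 12.4% to 37.0%, while the intervals of Bmpr1a, Bmpr2, Smad5 and Smad6 are too wide to place them.

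The genes most like each of the 10 in pattern were taken by Pearson r of log2(level + 0.1) over the 12 clusters, among 3276 genes at 1 or more in some cluster. Those of Bmp2 were Fbxo32, Slc22a23 and Marveld3, with r of 0.96, 0.94 and 0.92, each highest in cluster 8. Those of Id1 were Gstt1, Adh1 and Mat2b (0.86, 0.86 and 0.82), of Id2 Anxa6, Fam105a and Eva1b (0.96, 0.96 and 0.95), and of Id3 Mrps33, Ube3a and Sdhaf4 (0.80, 0.79 and 0.78). Smad7 was most like Duox2, AI661453 and Atp11b (0.90, 0.88 and 0.85), all highest in cluster 4. Smad1 came with Cdipt, Rab18 and Tpgs1 (0.98, 0.96 and 0.95), Smad5 with Puf60, Nedd4 and Fkbp2 (0.95, 0.94 and 0.93), and Smad6 with Slc4a2, Erbb3 and Car1 (0.94, 0.93 and 0.92). Bmpr1a was nearest to Papss1, Hnrnpl and Hoxb9 (0.95, 0.93 and 0.92), and Cblc and Jup were among the nearest to Bmpr2 (0.94 and 0.94). Without clusters 5 and 10, only 3 of the 30 nearest genes (3 for each of the 10) stayed among the nearest 3: Adh1 for Id1, Fbxo32 for Bmp2 and Slc4a2 for Smad6.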

How the data were processed

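Single-cell RNA libraries of mouse colon epithelium (1 group, 2 libraries) were processed with Cell Ranger 3.1.0, Seurat 2.3 and the build mm10, per the submitters' processing notes. The sources used here do not give the annotation, cell filters, doublet treatment or clustering. The table the authors deposited holds, from its values, the mean UMIs per 10000 of the cells of each cluster, for 17044 genes and 12 clusters. Each column sums to 10000, no column names a library, and averaging hides the spread over cells.

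Where 1 UMI of 1 cell makes up an average, 10000 divided by it equals the cell's total of UMIs multiplied by the cluster's cell number. Cell numbers and 2686 of 3082 totals (87.2%) were read in this way, with a relative tolerance of 1e-12. A total was accepted when 2 genes gave it, or 1 gene within the range of such totals. Cells without a total were put at the lowest one identified, 509 UMIs, which makes the 95% Poisson intervals wide. This basis replaced the planned one, the harmonic mean of identified totals alone, after simulated data showed intervals on that basis to be too narrow. Simulated data were used to check the reading of cell numbers and totals and the intervals of single levels. The 2-fold calls between absorptive-like and proliferating-like clusters were checked in this way only for genes at 1 or more in cluster 7. That check used identified totals alone, the basis that was replaced. Id3 and Bmp2, at 0.703 and 0.0681 in cluster 7, lay below that level, so whether their calls hold was not tested. Other steps, among them the intervals of ratios, the correlations and the motif search, were not checked on simulated data. A level of 0 allows 3 UMIs, and intervals and this limit cover counting error only.

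Genes past 2-fold were counted on log2(level + 0.1), a pseudocount that understates folds of low genes. With no replicates no test was run. The text names the 10 genes, the 3 genes with the highest level in each other pathway list, those past 2-fold in these lists, the 3 genes most like each of the 10, and the markers that name clusters. Of the genes this rule names, 1 is not reported here. The genes, lists and cluster numbers of the comparisons were chosen with earlier results of these data known. Gene positions are from GENCODE M21 (GRCm38) and start regions from RefSeq. Python 3.11.15 with numpy 2.4.6, pandas 2.3.3 and scipy 1.17.1 was used.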

Additional observations from a re-analysis of the deposited data

How the results depend on the processing

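With no replicates, only levels, folds and counts can be compared between settings. Of the 10 genes, 6 gene and cluster pairs were 2-fold higher than the mean of the other clusters. This became 3 at 4-fold, 12 against the median of the others and 4 with a pseudocount of 1. It was 9 with a pseudocount of 0.01 and 9 with the mean weighted by cells. The 23 lower pairs became 9 with a pseudocount of 1, 10 at 4-fold, 12 against the median and 15 without clusters 5 and 10. Without cluster 11, an alternative chosen after seeing the data, 4 higher and 18 lower pairs were counted. In clusters 8 and 9 over cluster 7, the 2 higher members became 1 with a pseudocount of 1, 1 at 4-fold and 1 with cluster 9 alone, and the 0 lower became 1 with a pseudocount of 0.01. The 2 higher of the other pathway genes became 0 with a pseudocount of 1, 7 with 0.01, 1 at 4-fold, 1 with only genes at 0.5 or more in some cluster, 1 with cluster 9 alone and 1 against cluster 2. The 5 lower became 0, 11, 0, 3 and 1 with a pseudocount of 1, a pseudocount of 0.01, 4-fold, genes at 0.5 or more and cluster 2. The causes were not tested. Against cluster 2 in place of cluster 7 the log2 differences of Id1, Id2 and Smad7, all under 2-fold, were -0.46, -0.35 and -0.40. Of 110 neighbouring pairs in the orders of levels, 9 had separate intervals, 13 with the median total and 11 with identified totals alone. This count was not made over all genes, so it cannot be called high or low. Of the values of single genes under an alternative, 91 kept within the interval and 23 moved. A value that kept within a wide interval could still lose its 2-fold call. With a pseudocount of 1, the log2 difference in cluster 11 fell from 1.27 to 0.37 for Bmpr1a and from 1.32 to 0.62 for Smad1. No paired analysis was possible because the columns pool both libraries, and leaving out each library was not run for the same reason. Depth limits the receptors, Smad5 and Smad6 most, at levels of a few UMIs in the small or shallow clusters.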
